A study of Mus musculus with 16 samples.

Results

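A set of 9 genes of antigen presentation and of lymphocytes were followed in the liver of mice that had received the vehicle, a lean or an obese caecal microbiota. They were chosen by name, as all probes whose gene name in the scanner files was Cd74, H2-Aa, H2-Ab1, H2-Eb1, Cd79a, Cd79b, Blnk, Cd3e or Cd8a, which gave 9 of the 37074 gene names on the array and 14 probes. The recipients were male C57BL/6 wild-type mice, antibiotic-free and conventional (with their own gut flora), which were 6 weeks old at the start, were fed a normal chow for 4 weeks and were 10 weeks old at sampling. Conv + PBS mice (PBS mice below, n = 6) received reduced PBS, Conv + LM mice (LM mice, n = 5) caecal content of chow-fed lean donors and Conv + OM(HFD) mice (OM mice, n = 5) caecal content of donors made obese by a high-fat diet. The labels describe the PBS mice as untransplanted, while the treatment text names the vehicle. Whole liver RNA of each mouse was hybridized to 1 Agilent 1-colour array, on which the brightness of a probe rises with the amount of its transcript. The p-values below measure the spread between these mice, which were group-housed. The cage of each mouse is not given and each inoculum was a pool of donors, so cage and pool cannot be told apart from treatment. The paper also reports that the gut flora of the groups differed in part before the transfer.

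MHC class II molecules display peptides from outside the cell to CD4+ T cells. Each is a pair of an alpha and a beta chain, held by the invariant chain Cd74 until the peptide is loaded, and is made by B cells, dendritic cells and macrophages, in the liver mainly by cells other than hepatocytes. Cd79a and Cd79b form the signalling part of the B cell receptor and Blnk is the adaptor that links it to downstream enzymes, while Cd3e is a chain of the T cell receptor complex and Cd8a a coreceptor of cytotoxic T cells.

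The promoters of class II genes share boxes named X and Y, bound by the RFX complex and by NF-Y, on which the co-activator Ciita assembles. They are shown here because the class II genes turned out to vary together from mouse to mouse. A part of these boxes in that variation was not tested. Promoter sequences (250 bases before to 50 after the start of a gene, RefSeq, GRCm38.p6) were matched by symbol for 6 of the 9 genes, and Cd74, H2-Ab1 and Cd79b had no entry in the table. The letters searched, chosen after these sequences had been read, were GNAAC for the core of X and TGATTGG for Y, which do not overlap, on both strands, with X 20 to 30 bases before Y on the same strand. In the windows below, from 10 bases before X to 10 bases after Y on the strand of the gene, capitals mark both cores.
H2-Aa (chr17:34287857-34287914, minus strand): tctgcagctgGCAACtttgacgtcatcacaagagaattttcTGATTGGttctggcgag
H2-Eb1 (chr17:34305766-34305822, plus strand): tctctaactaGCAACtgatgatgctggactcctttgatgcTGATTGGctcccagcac
H2-DMb1 (chr17:34153087-34153144, plus strand): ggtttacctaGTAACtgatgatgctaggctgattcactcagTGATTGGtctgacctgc
H2-Oa (chr17:34092293-34092350, plus strand): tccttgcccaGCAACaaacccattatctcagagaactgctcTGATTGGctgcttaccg
H2-Ob (chr17:34238808-34238862, plus strand): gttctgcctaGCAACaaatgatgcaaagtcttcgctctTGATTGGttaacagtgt
H2-Eb2 (chr17:34325533-34325589, plus strand): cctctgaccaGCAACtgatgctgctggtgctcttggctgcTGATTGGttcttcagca

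In these windows 23 to 26 bases separated the cores, and the Y core ended 38 to 56 bases before the start of the gene, but 95 bases before it in H2-Eb2. Of the 32851 promoters of the same length, 84.8% held GNAAC, 7.82% held TGATTGG and 106 (0.323%) held the pair. Both class II members in the table held the pair, as did H2-DMb1, H2-Oa, H2-Ob and H2-Eb2. The pair was absent from H2-DMb2, H2-DMa, Ctss, Ifi30, Rfx5 and Rfxank of the class II pathway and from Cd79a, Blnk, Cd3e and Cd8a. A match describes these letters in these windows only.

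H2-Ab1, the beta chain of the I-A molecule, had 4 probes, of which the brightest overlapped a second one by 51 bases with 1 difference, T51C, where positions are counted from 1 at the 5′ end of the brightest probe. The stretch of each around that base is printed to show how alike the probes behind the H2-Ab1 values are, with the differing base in capitals.
H2-Ab1 brightest probe (chr17:34406296-34406355, mm9): acaaataaacgagacTcagactctg
H2-Ab1 overlapping probe (chr17:34406305-34406363, mm9): acaaataaacgagacCcagactctg
The deviations of mice from their group means on both probes had r = 0.974, and over the 6 pairs of H2-Ab1 probes r was 0.955 to 0.984 (n = 16 mice, the same RNA on each array).

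Of the 56605 probes on the array, 49.7 to 58.3% were well above background on an array, and 8 arrays lay on each of 2 slides. Slide 1 held 3 PBS, 2 LM and 3 OM mice, and slide 2 held 3, 3 and 2. The 8 hepatocyte genes listed as a check of the tissue, such as Alb and Ttr, were well above background on all 16 arrays. No gene passed an adjusted p under 0.05 among the 20404 genes tested in any comparison (limma, Benjamini-Hochberg). At an unadjusted p under 0.05, the threshold of the methods, 663 genes (3.25%) passed between OM and PBS mice. The counts were 792 (3.88%) between LM and PBS mice and 545 (2.67%) between OM and LM mice. Each share is below the 0.05 of genes that would pass that threshold on average if none differed. Array 1 of the PBS group stood apart for the class II genes. Comparisons of the 7 genes tested with PBS mice are also given without it, as are relations of class II genes with Cd79b, Blnk, Cd3e and most lists.

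The class II genes were readily detected, and the B and T cell members only in part. Cd74, H2-Aa, H2-Ab1, H2-Eb1, Cd79b, Blnk and Cd3e were well above background on 16 of 16 arrays with every probe. Cd79a (1 probe) and Cd8a (2 probes) were well above background on 0 of 16, so these genes had no measured level and no fold change is given for them. By the weaker criterion of Feature Extraction, a signal that is positive and differs from the local background, Cd79a was detected on 12 arrays and the Cd8a probes on 1 and 8. Of the 9 genes, 7 were thus compared between groups.

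**Figure D1:**
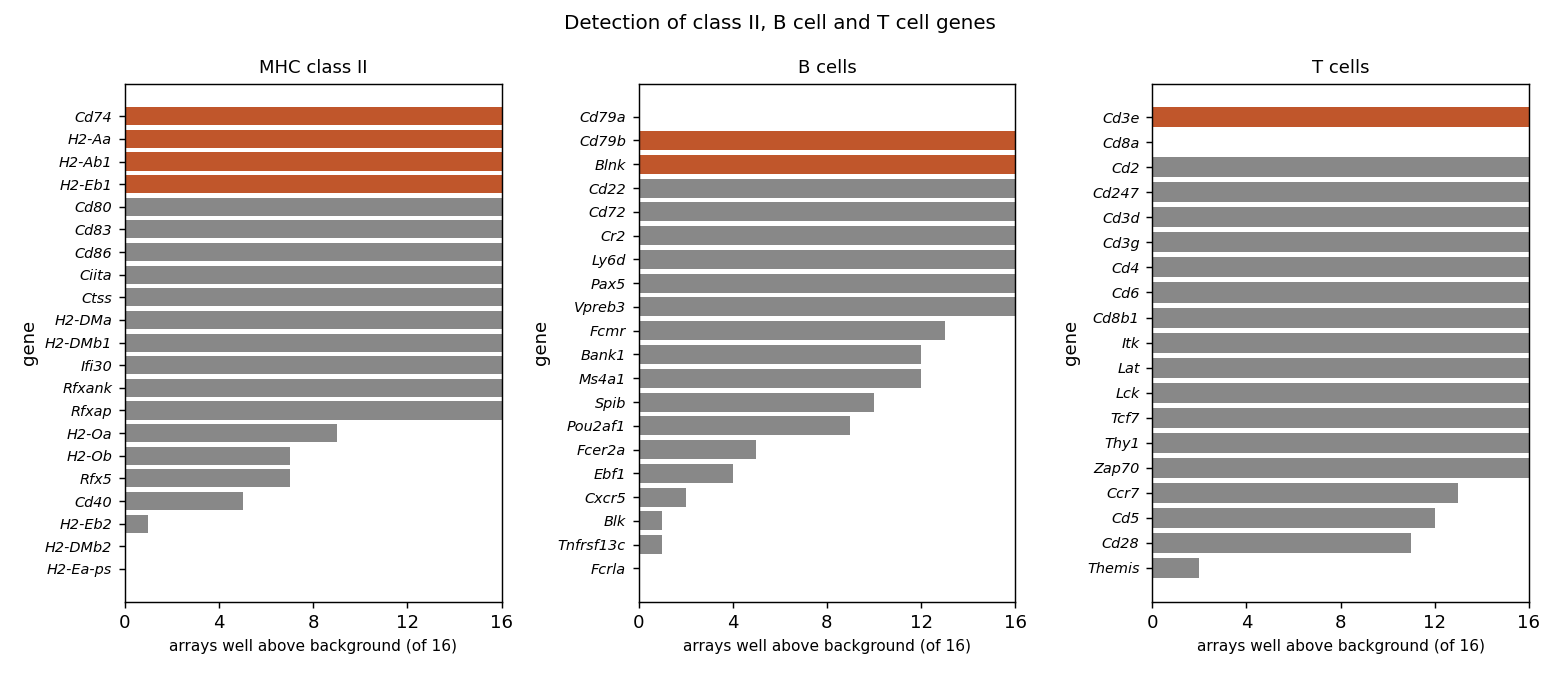
Number of arrays (x axis, of 16) on which each gene (y axis) was well above background, for the class II genes, the B cell genes and the T cell genes. Orange bars are the 9 genes described here (the best of their probes), grey bars other genes of each list (the probe chosen for the gene). Cd79a and Cd8a had no bar, while Cd79b, Blnk, Cd3e and all 4 class II genes reached 16.

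Other B and T cell genes on the array gave the same mixed picture. Of the 18 B cell genes with a probe, 6 (Cd22, Cd72, Cr2, Ly6d, Pax5 and Vpreb3) were well above background on all 16 arrays, Ms4a1 (CD20) on 12 and Fcrla on 0. Of the 17 T cell genes with a probe, 13 were on all 16, among them Cd3d, Cd3g and Cd247, the other chains of the T cell receptor complex, Cd4, and Cd8b1, the partner chain of Cd8a. The share of genes seen on all arrays was thus 13 of 17 for T cells and 6 of 18 for B cells. These shares describe the probes, since probes differ in brightness for reasons other than the amount of transcript. On the log2 scale defined below, the mean in PBS mice was 5.85 for Cd4 and 0.96 for Cd247. It was -1.70 for Cd3d, -2.66 for Cd3g and -2.89 for Cd8b1. Whether each of these probes, above all the bright one of Cd4, reports T cells alone was not tested. Among plasma cell genes, Jchain, which joins immunoglobulin chains, was on 16 and Mzb1 on 15.

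Within the class II pathway, 10 of 17 genes were well above background on all 16 arrays. These included Ciita, the co-activator of class II transcription, H2-DMa and H2-DMb1, which load the peptide, and Ctss and Ifi30, which process antigen and the invariant chain. H2-Oa and H2-Ob, the chains of a molecule that restrains peptide loading and is found mainly in B cells, were on 9 and 7 arrays. H2-Ea-ps, the alpha chain gene that would pair with H2-Eb1 and is inactive in C57BL/6 mice, was on 0 of 16, as was H2-DMb2, and H2-Eb2 was on 1.

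Class II levels did not separate the groups. All levels are log2 brightness minus the 75th percentile of the array, so 1 unit is a doubling, and levels of different genes are not comparable since their probes differ. For Cd74, the invariant chain, the lowest, median and highest PBS mice were at 1.93, 2.59 and 4.83. The LM mice were at 2.01, 3.20, 2.81, 2.33 and 3.35 for Cd74, and the OM mice at 3.21, 2.08, 2.61, 2.64 and 2.54. A single PBS mouse, mouse 1, lay above all others, and the ranges of the groups overlapped.

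H2-Ab1 was at 2.74, 3.07 and 5.50 in the lowest, median and highest PBS mice. The LM mice had H2-Ab1 at 2.66, 3.69, 3.35, 2.84 and 3.89, and the OM mice at 3.71, 2.72, 3.09, 3.17 and 3.11. The groups overlapped, with mouse 1 again the highest of all 16.

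H2-Aa, the alpha chain of I-A, was at -1.10, -0.67 and 1.45 in the lowest, median and highest PBS mice. H2-Aa was at -1.05, 0.48, -0.34, -1.03 and 0.02 in the LM mice and at 0.17, -1.30, -0.74, -0.45 and -0.44 in the OM mice. LM mouse 14 and OM mouse 25 were the highest of their groups for H2-Aa, and the groups overlapped.

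For H2-Eb1, the beta chain of I-E, the lowest, median and highest PBS mice were at 2.22, 2.63 and 4.91. The LM mice were at 2.44, 3.51, 3.08, 2.29 and 3.28 for H2-Eb1 and the OM mice at 3.42, 2.01, 2.94, 2.80 and 2.47. The same mice stood at the top of each group as for H2-Aa, and the groups overlapped.

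**Figure D2:**
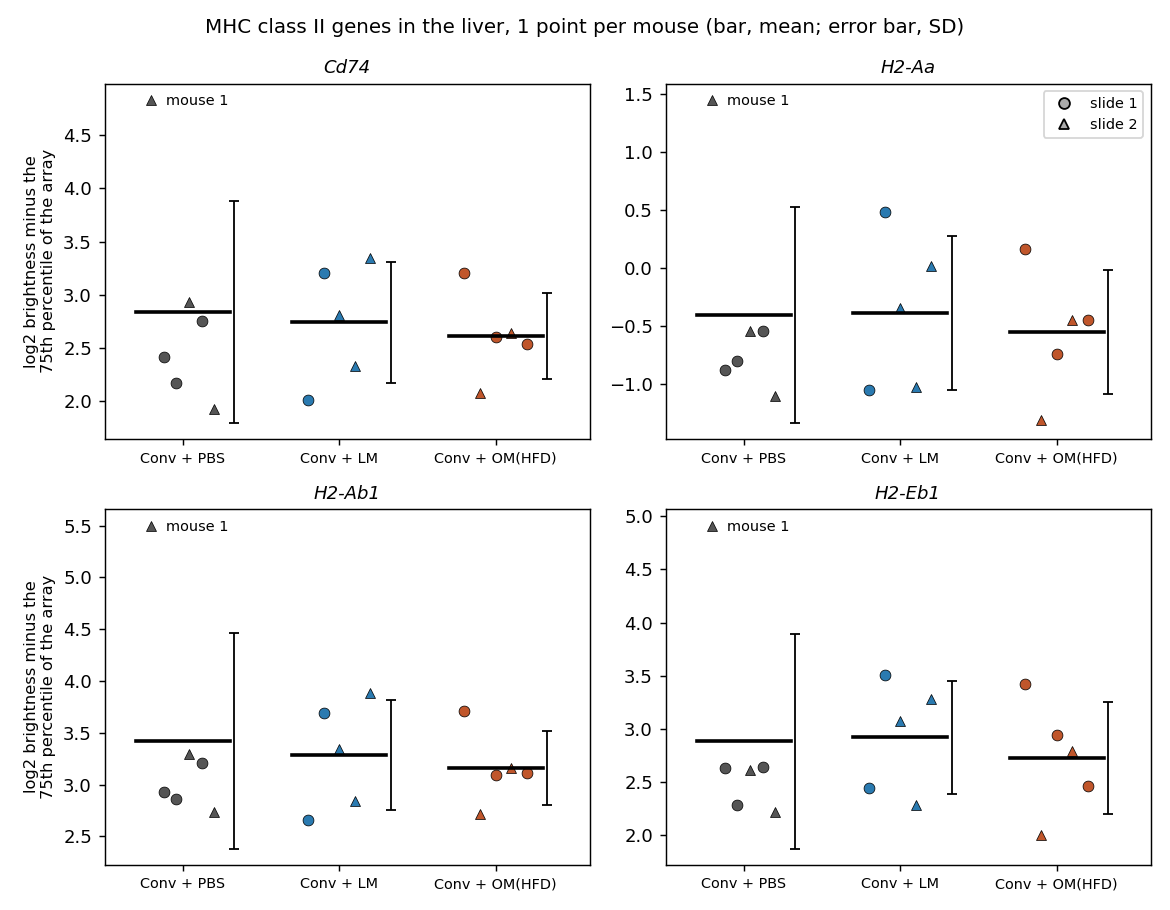
Level of Cd74, H2-Aa, H2-Ab1 and H2-Eb1 (y axis, log2 brightness minus the 75th percentile of the array) in each mouse of the 3 groups (x axis). Points are mice (circles, slide 1; triangles, slide 2), horizontal bars group means and vertical bars the SD beside them. Mouse 1 of the PBS group (4.83 for Cd74, 5.50 for H2-Ab1) lay above every other mouse in each panel, and the 3 groups overlapped.

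From mouse to mouse the class II genes differed widely. Between the lowest and the highest of the 16 mice, the level differed 7.45-fold for Cd74, 6.74-fold for H2-Aa, 7.17-fold for H2-Ab1 and 7.50-fold for H2-Eb1. Their SD within groups was 0.74 to 0.75 on the log2 scale, against a median of 0.24 over all genes tested, and stood at the 94th percentile of these genes. In whole liver, fewer cells of a type and less RNA per cell cannot be told apart.

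Mouse 1 was also high for genes of other cell types. It was the highest of the 16 mice for 11 of 11 Kupffer cell genes (resident macrophages of the liver), 11 of 13 interferon gamma targets, 9 of 14 class II pathway genes, 7 of 16 T cell genes, 3 of 7 NK cell genes, 4 of 6 neutrophil genes, 1 of 8 dendritic cell genes, 1 of 8 sinusoidal endothelial genes, 1 of 13 B cell genes and 0 of 3 plasma cell genes. Over all genes tested it was the highest for 8.3%. It was the highest for 0 of 8 hepatocyte genes. On its array 49.7% of the probes were well above background, the lowest of the 16 but close to PBS mouse 5 (49.8%) and LM mouse 15 (49.9%). The summed level of the 11 Kupffer cell genes was 5.75 to 8.14 on the log2 scale in PBS mice (median 5.99), 5.48 to 6.06 in LM mice and 5.68 to 7.04 in OM mice, and the part of these cells in the class II values was not tested.

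In the comparison of OM with PBS mice, which asks what the obese microbiota changed in the liver, 0 of the 7 genes tested differed at an unadjusted p under 0.05 in limma, against 3.25% of all genes tested, and 0 at an adjusted p under 0.05, against 0%. No member had groups that did not overlap, against 0.23% of all genes. The median log2 fold change of the 7 was -0.15, and that of all genes -0.0021. All 4 class II genes had a lower mean in OM mice, with log2 differences from -0.26 for H2-Ab1 (SE 0.41, limma p = 0.532, adjusted p = 0.99998 by Benjamini-Hochberg; exact permutation p = 0.829) to -0.15 for H2-Aa (SE 0.42, limma p = 0.723). The 95% interval for H2-Ab1 reached from 0.453-fold to 1.53-fold. Without mouse 1 all 4 turned to higher means, 0.17 for Cd74, 0.22 for H2-Aa, 0.15 for H2-Ab1 and 0.25 for H2-Eb1. Within slide 1, which does not hold mouse 1, the difference in H2-Ab1 was 0.30, and within slide 2, which does, it was -0.90.

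Between LM and PBS mice, which asks what the lean microbiota changed, 0 of the 7 genes passed the unadjusted threshold, against 3.88% of all genes, and none had groups that did not overlap, against 0.279%. The median of the 7 was 0.02, and that of all genes -0.01. H2-Aa (0.02) and H2-Eb1 (0.04) had higher means and Cd74 (-0.10) and H2-Ab1 (-0.14, SE 0.41, limma p = 0.747, exact permutation p = 0.874) lower ones. Without mouse 1 the means of all 4 were higher in LM mice, by 0.28 for H2-Ab1 to 0.44 for H2-Eb1, and the median of the 7 was 0.39. H2-Ab1 differed by 0.17 within slide 1 and by -0.48 within slide 2.

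Between the mice given the obese and the lean microbiota, 0 of the 7 genes passed, against 2.67% of all genes, with no member free of overlap, against 0.436%. The median of the 7 was -0.13, and that of all genes 0.0034. Without OM mouse 26 the median of the 7 was 0.0070. The 4 class II genes had lower means in OM than in LM mice, with differences from -0.19 for H2-Eb1 (SE 0.44, limma p = 0.668, exact permutation p = 0.579) to -0.13 for Cd74 and H2-Ab1. The interval of H2-Eb1 reached from 0.456-fold to 1.68-fold, and its difference was -0.03 within slide 1 and -0.48 within slide 2. The smallest p the exact test allows is 0.00794 here and 0.00216 against PBS mice.

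**Figure D3:**
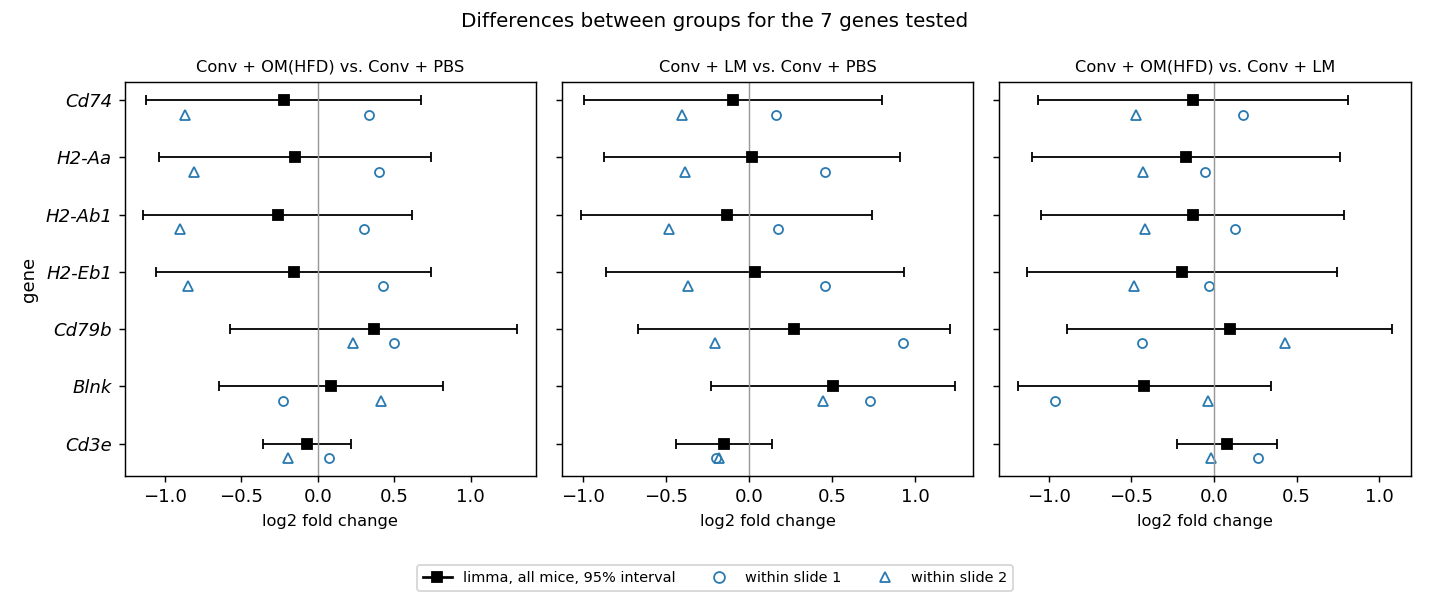
Log2 fold change (x axis) of the 7 genes tested (y axis) in each of the 3 comparisons. Squares and bars are the limma estimate over all mice and its 95% interval, open circles and triangles the difference of means within slide 1 and within slide 2. All intervals include 0, and for the class II genes the values within the slides lay on opposite sides of 0 in the comparison of OM with PBS mice (0.30 and -0.90 for H2-Ab1).

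Of the B cell genes, Cd79b varied within groups with an SD of 0.79 and Blnk with an SD of 0.61 on the log2 scale. Cd79b was at -2.25, -1.28 and 0.03 in the lowest, median and highest PBS mice. Cd79b was at -1.10, 0.24, -1.21, -1.14 and -1.66 in the LM mice and at 0.35, -1.32, -0.87, -0.48 and -2.06 in the OM mice. The highest mice were mouse 1 (PBS), 14 (LM) and 25 (OM), those that led H2-Aa and H2-Eb1, and the groups overlapped. Cd79b was higher in OM than in PBS mice by 0.37 (SE 0.44, limma p = 0.421, exact permutation p = 0.472; 0.672-fold to 2.47-fold) and by 0.27 in LM mice (limma p = 0.549). Without mouse 1 these differences were 0.62 and 0.53, without OM mouse 25 the first was 0.058, and without LM mouse 14 the second was -0.034. Cd79b did not pass in any comparison, and between both inocula it differed by 0.09 (exact permutation p = 0.865), with -0.43 within slide 1 and 0.43 within slide 2.

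Blnk had the smallest p of the members, without passing the threshold. It was at -0.09, 1.17 and 1.82 in the lowest, median and highest PBS mice. Blnk was at 2.05, 2.05, 1.35, 1.18 and 1.07 in the LM mice and at 1.89, 1.24, 1.24, 1.09 and 0.14 in the OM mice. The LM mean was higher by 0.50 than that of PBS mice (SE 0.34, limma p = 0.164, adjusted p = 0.998 by Benjamini-Hochberg; exact permutation p = 0.201; 0.853-fold to 2.36-fold), by 0.73 within slide 1 and 0.45 within slide 2. Without PBS mouse 6 this difference was 0.28, the lowest of the values with 1 mouse left out, and without PBS mouse 1 it was 0.59. Against LM mice, OM mice differed in mean by -0.42 (SE 0.36, exact permutation p = 0.238), by -0.96 within slide 1 and -0.04 within slide 2, and by -0.17 without OM mouse 30. Against PBS mice the difference was 0.08 (exact permutation p = 0.812), with opposite signs within slide 1 (-0.23) and slide 2 (0.41), and 0.17 without PBS mouse 1. The 2 highest LM mice were both on slide 1, and the lowest mouse of all was PBS mouse 6, also the lowest for Cd79b and Cd74.

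**Figure D4:**
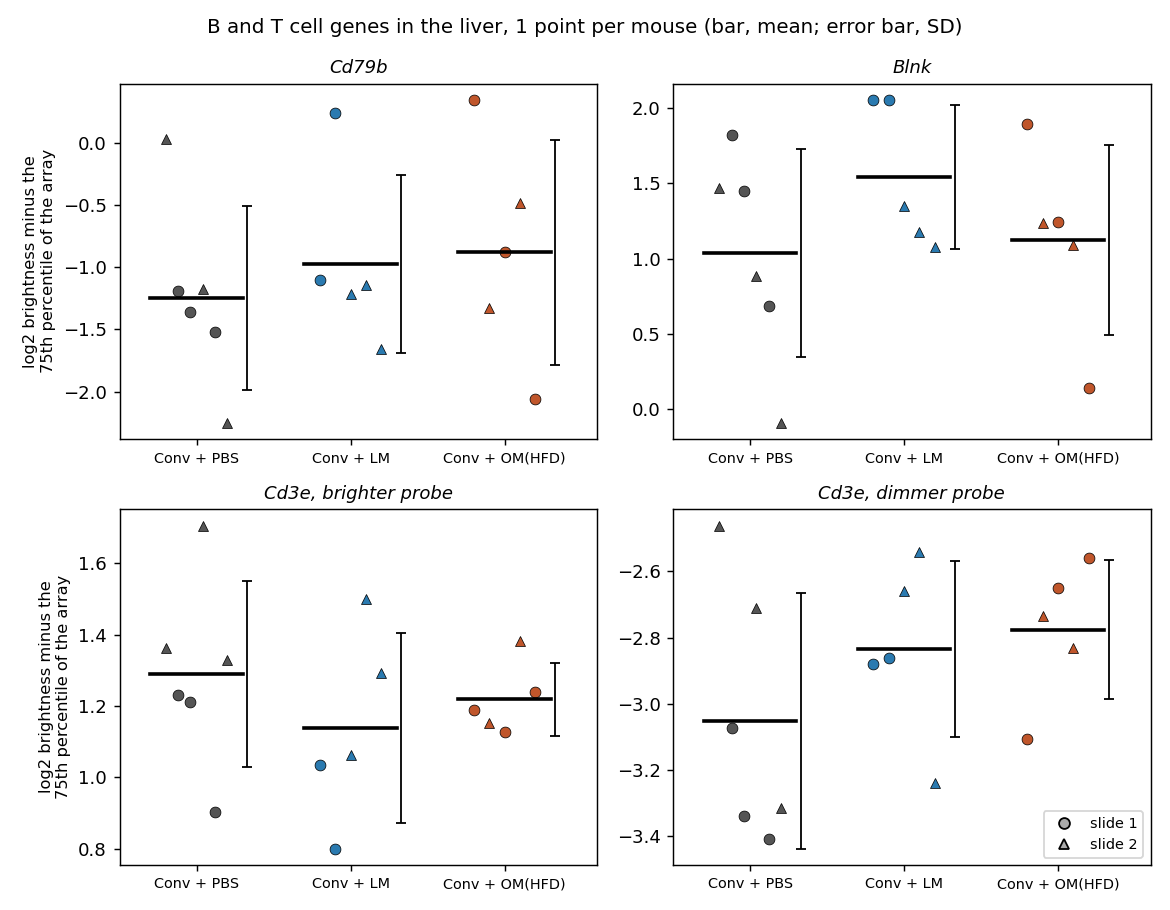
Level of Cd79b, Blnk and both probes of Cd3e (y axis, log2 brightness minus the 75th percentile of the array) in each mouse of the 3 groups (x axis). Points are mice (circles, slide 1; triangles, slide 2), horizontal bars group means and vertical bars the SD beside them. The groups overlapped in each panel, and the probes of Cd3e ordered the groups differently, with PBS highest in mean on the brighter one and lowest on the dimmer one.

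Cd3e, the T cell receptor chain, varied least. On its brighter probe (chr9:44806828-44806887, minus strand, mm9), which stood for the gene, it was at 0.90, 1.28 and 1.71 in the lowest, median and highest PBS mice. Cd3e was at 1.04, 0.80, 1.06, 1.50 and 1.29 in the LM mice and at 1.19, 1.15, 1.13, 1.38 and 1.24 in the OM mice. The highest and lowest of the 16 mice differed 1.87-fold, and its SD within groups stood at the 46th percentile of all genes. It differed by -0.07 between OM and PBS mice (SE 0.14, exact permutation p = 0.597; 0.779-fold to 1.16-fold), by -0.15 between LM and PBS mice (p = 0.357) and by 0.08 between both inocula (p = 0.563). Without mouse 1 the differences against PBS mice were -0.06 for OM and -0.14 for LM mice.

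The other probe of Cd3e (chr9:44807254-44807313, minus strand, mm9) gave another pattern. Its deviations from group means had r = 0.414 with those of the brighter probe over 16 mice, in contrast to the probes of H2-Ab1. On it the group means were -3.05 ± 0.39 (SD, n = 6) for PBS, -2.84 ± 0.27 (SD, n = 5) for LM and -2.78 ± 0.21 (SD, n = 5) for OM mice. The differences against PBS mice were thus 0.28 for OM and 0.22 for LM mice, neither of which passed, and opposite in sign to those of the brighter probe.

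Whether class II genes varied with B or with T cell genes was asked over all 16 mice with group means removed, on the 36 pairs of the 9 genes, 10 of which passed an adjusted p under 0.05 (100000 permutations within groups, Benjamini-Hochberg over the pairs). The 6 pairs of class II genes had r = 0.960 to 0.989 and Spearman's rho = 0.862 to 0.959 (adjusted permutation p of 0.00036 or less for r and 0.00144 or less for rho, the smallest raw p possible being 1e-05). Without the 2 mice farthest from the median, r was 0.892 to 0.986, and within slides it was 0.833 to 0.987 on slide 1 and 0.972 to 0.995 on slide 2 (8 mice each). The 4 class II genes thus rose and fell together from mouse to mouse in each subset examined.

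Cd79b and Blnk also varied together, with r = 0.764 (adjusted permutation p = 0.0101) and rho = 0.771 (adjusted permutation p = 0.00422). For this pair r was 0.727 without the 2 mice farthest from the median, 0.782 within slide 1 and 0.880 within slide 2. With the class II genes Cd79b had r = 0.710 for H2-Eb1 (adjusted permutation p = 0.0182), 0.681 for H2-Aa (p = 0.034 by the same permutations), 0.637 for Cd74 (permutation p = 0.0428) and 0.610 for H2-Ab1 (permutation p = 0.061). Their rho values of 0.385 to 0.568 did not pass (adjusted permutation p from 0.131 to 0.33). Without the 2 mice farthest from the median, r fell to 0.467 for H2-Eb1, 0.345 for H2-Aa and 0.393 for Cd74, while for H2-Ab1 it was 0.692. Without mouse 1 alone r was 0.614 for H2-Eb1, 0.542 for H2-Aa, 0.466 for Cd74 and 0.418 for H2-Ab1, and the last was 0.728 without LM mouse 17, the other mouse left out for it. Within slide 1, which does not hold mouse 1, r was 0.903, 0.678, 0.739 and 0.760 in the same order, and within slide 2 it was 0.809, 0.812, 0.834 and 0.793. The size of these relations over all mice thus changed with mouse 1, while within both slides they were positive, and whether they differ from that of Cd79b with Blnk was not tested.

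Blnk and Cd3e showed no relation to class II genes that passed. Blnk had r = 0.224 with H2-Ab1 (adjusted permutation p = 0.64) to 0.354 with H2-Eb1 (adjusted permutation p = 0.515), although within slide 2 r with H2-Ab1 was 0.776, against 0.214 within slide 1. Cd3e had r = -0.08 with H2-Aa to 0.06 with Cd74 (adjusted permutation p of 0.848 or more), and -0.14 with Cd79b (adjusted permutation p = 0.71). Without mouse 1 r with the class II genes was 0.082 to 0.321 for Blnk and -0.262 to -0.026 for Cd3e. Within slide 1 the r of Cd3e with the class II genes was lower, from -0.692 for Cd74 to -0.548 for H2-Aa. On its dimmer probe Cd3e had r = 0.361 with H2-Ab1 and 0.204 with Cd79b. Pairs with Cd79a or Cd8a, whose signals were not well above background, had r between -0.417 and 0.452 and none passed.

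**Figure D5:**
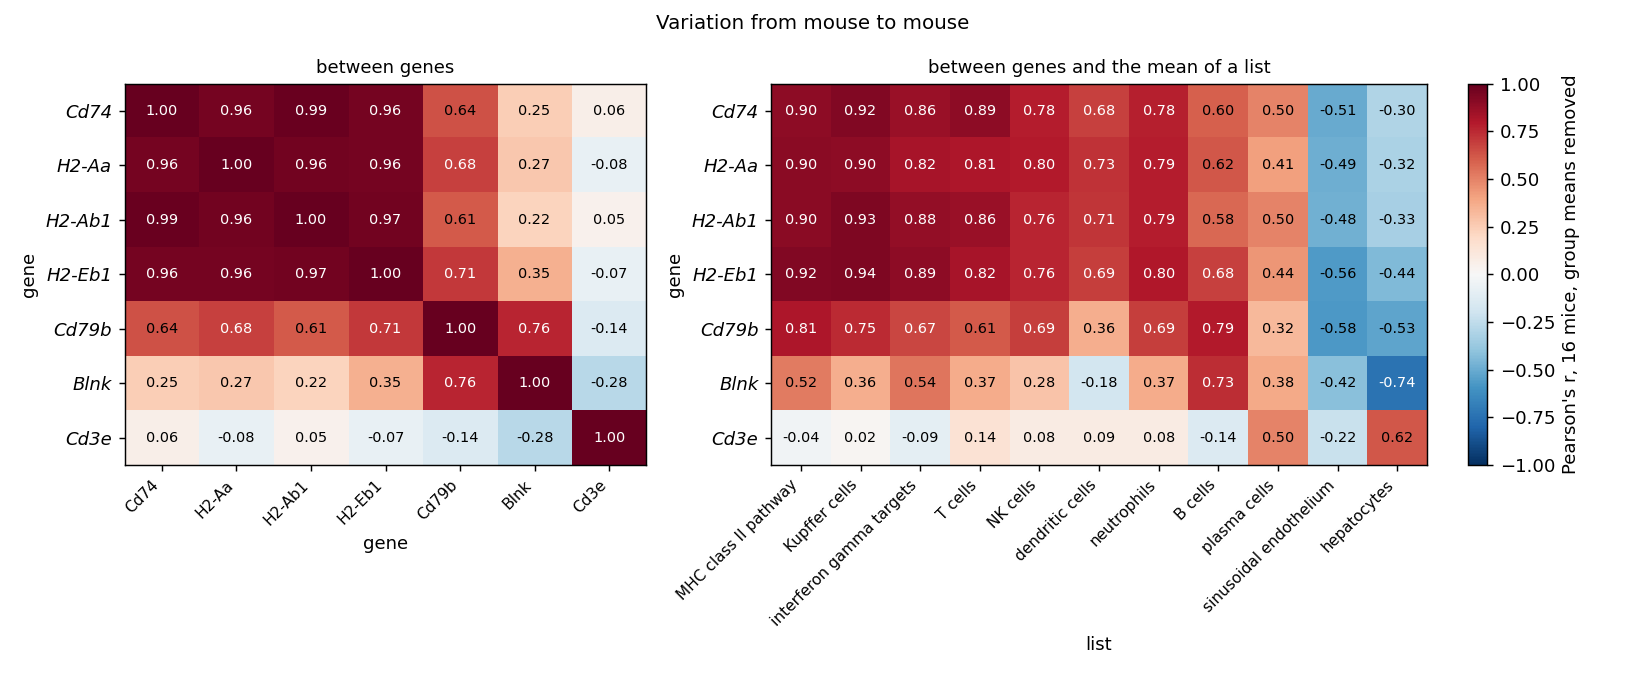
Pearson's r over the 16 mice, with group means removed, between the 7 genes tested (left, both axes are genes) and between each gene and the mean of each list of marker genes (right, x axis lists, y axis genes). Numbers and colours give r. The 4 class II genes form a block at 0.96 or more, and Cd79b and Blnk a pair at 0.76. Cd3e lies between -0.28 and 0.06 with the other genes and reaches 0.62 with the hepatocyte list and 0.50 with the plasma cell list.

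The class II genes also varied with lists of other cell types, set beside them after the data had been seen (77 relations of the 7 genes with 11 lists, adjusted over these). H2-Ab1 had r = 0.932 and rho = 0.800 with the mean of the Kupffer cell genes (adjusted permutation p = 0.00121 and 0.0018), and r was 0.774 without the 2 mice farthest from the median, 0.849 within slide 1 and 0.958 within slide 2. With the T cell list H2-Ab1 had r = 0.861 and rho = 0.850 (adjusted permutation p = 0.00121 and 0.0018), and 0.769 without these 2 mice. With the B cell list it had r = 0.577 and rho = 0.265 (adjusted permutation p = 0.0667 and 0.402), while r passed for H2-Eb1 (0.681, adjusted permutation p = 0.0201) and H2-Aa (0.620, adjusted permutation p = 0.0355) and rho for none of the 4. Over the 4 class II genes, r was 0.898 to 0.936 with Kupffer cell genes, 0.810 to 0.892 with T cell genes, 0.823 to 0.894 with interferon gamma targets and 0.577 to 0.681 with B cell genes. Without mouse 1 these ranges were 0.744 to 0.801, 0.662 to 0.841, 0.528 to 0.653 and 0.362 to 0.568 in the same order. Within slide 1 r was 0.751 to 0.891 with Kupffer cell genes, 0.746 to 0.849 with T cell genes, 0.283 to 0.651 with interferon gamma targets and 0.327 to 0.588 with B cell genes. Within slide 2, which holds mouse 1, it was 0.942 to 0.958, 0.852 to 0.925, 0.942 to 0.963 and 0.859 to 0.881. For NK cell genes r over the 4 class II genes was 0.759 to 0.796, for neutrophil genes 0.776 to 0.803 and for dendritic cell genes 0.684 to 0.726 (adjusted permutation p of 0.017 or less for r). Their rho values were 0.674 to 0.762, 0.562 to 0.618 and 0.671 to 0.732, of which those of H2-Ab1 and H2-Eb1 with neutrophil genes did not pass (adjusted permutation p = 0.0513 and 0.0626). Without mouse 1 the r values with these 3 lists were 0.657 to 0.699, 0.485 to 0.546 and 0.564 to 0.661. With plasma cell genes r was 0.407 to 0.499 and did not pass (adjusted permutation p from 0.2 to 0.285), and without mouse 1 it was 0.050 to 0.178, with values of -0.482 to -0.313 within slide 1 and 0.830 to 0.916 within slide 2. With sinusoidal endothelial genes r was negative, from -0.563 for H2-Eb1 (adjusted permutation p = 0.0355) to -0.483 for H2-Ab1, and passed for H2-Eb1 alone of the 4, whose rho of -0.582 did not (adjusted permutation p = 0.0626). Within slide 1 this r was -0.21 for H2-Eb1 but 0.03 for Cd74, 0.19 for H2-Aa and 0.04 for H2-Ab1. Within slide 2 it was -0.69 to -0.61 over the 4 genes, and without mouse 1 -0.50 to -0.36. For the 8 lists with positive r named here, r with each class II gene was thus lower without mouse 1 than over all mice, and differences between lists and between slides were not tested.

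Of the B cell members, Cd79b had r = 0.790 and rho = 0.747 with the mean of the 13 B cell genes tested (adjusted permutation p = 0.00582 and 0.0133; 0.572 without the 2 mice farthest from the median). Cd79b also had r = 0.811 and rho = 0.650 with the class II pathway list (adjusted permutation p = 0.00286 and 0.0371), and its r passed with the Kupffer cell (0.748), neutrophil (0.695), NK cell (0.693), interferon gamma (0.669) and T cell (0.614) lists, where rho did not. With the sinusoidal endothelial list the rho of Cd79b was -0.653 and passed (adjusted permutation p = 0.0412), while its r of -0.577 did not (adjusted permutation p = 0.0659). Without mouse 1 the r of Cd79b was 0.789 with the class II pathway and 0.724 with the B cell list. It was then 0.696 with Kupffer cell, 0.563 with neutrophil, 0.582 with NK cell, 0.546 with interferon gamma, 0.451 with T cell and -0.493 with sinusoidal genes. Blnk had r = 0.734 and rho = 0.794 with the B cell genes (adjusted permutation p = 0.0148 and 0.00356; 0.588 without 2 mice). Cd3e had r = 0.143 and rho = 0.185 with the mean of the 16 T cell genes tested (adjusted permutation p = 0.711 and 0.605), and on its dimmer probe r was 0.248. Neither probe of Cd3e thus followed the other T cell genes closely in these mice.

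The genes whose pattern over the 16 mice was most like the mean of the 4 class II genes were, as a description, H2-DMb1 (r = 0.970), Gm12250 (0.960), the complement chain C1qb (0.959), Dok2 (0.957), the transcription factor Irf8 (0.953) and Was (0.953). For the B cell receptor, where only Cd79b was measured, they were Tmem86a (0.938), Rnase4 (0.917), ENSMUST00000178160 (0.912), Arhgap30 (0.880), Cd48 (0.871) and Asah1 (0.870).

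Of the genes of the same pathways and cell types, 3 of 107 tested passed an unadjusted p under 0.05 in OM against PBS mice (2.8%, against 3.25% of all genes), 1 in LM against PBS mice (0.935%, against 3.88%) and 1 between both inocula (0.935%, against 2.67%). In OM against PBS mice, 0 of 14 class II pathway genes passed an unadjusted p under 0.05 (median log2 fold change -0.07), and 0 of 13 B cell genes (0.13), 0 of 3 plasma cell genes (0.38), 0 of 11 Kupffer cell genes (-0.12), 0 of 8 dendritic cell genes (0.11), 0 of 6 neutrophil genes (0.06), 0 of 8 hepatocyte genes (0.08) and 0 of 13 interferon gamma targets (-0.21). In 3 lists 1 gene passed, each lower in OM mice. Cd3g, a chain of the T cell receptor complex, fell by 0.46 (SE 0.16, limma p = 0.0111, adjusted p = 0.99998 by Benjamini-Hochberg, exact permutation p = 0.0195), the only one of 16 T cell genes (median -0.02). Klrb1c (NK1.1) had -0.53 (limma p = 0.0459, exact permutation p = 0.0887), 1 of 7 NK cell genes (-0.19), on a probe well above background in 5 of 6 PBS and 2 of 5 OM mice, and Clec4g, a lectin of sinusoidal endothelium, -0.48 (limma p = 0.0159, exact permutation p = 0.013), 1 of 8 (-0.22). Within lists where none passed, H2-Ob had the smallest limma p of the class II pathway, with a difference of 0.53 (exact permutation p = 0.193), and in the B cell list it was smallest for Fcer2a, a low-affinity IgE receptor, with -0.86 (exact permutation p = 0.197). H2-Ob was well above background in 2 PBS and 4 OM mice and Fcer2a in 3 and 2.

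Without mouse 1 the list genes in OM against PBS mice looked different. Then 8 of 107 passed (7.48%, against 3.83% of all genes), among them H2-Ob (0.78), the B cell co-activator Pou2af1 (0.82, well above background in 3 mice of each group), Jchain (0.87) and Cd8b1 (0.37), higher in OM mice, and Cd3g (-0.36), Clec4g (-0.50) and Kdr, a receptor for vascular growth factor (-0.30), lower, while Klrb1c (-0.42) no longer passed. Of the class II pathway genes 12 of 14 then had a higher mean in OM mice, against 6 with mouse 1, and the median turned to 0.15. The medians of the Kupffer cell genes (0.19), T cell genes (0.11), NK cell genes (0.0094) and interferon gamma targets (0.04) also turned positive, and that of the neutrophil genes was 0.61. No list gene passed an adjusted p under 0.05 with or without mouse 1 (limma, Benjamini-Hochberg), and leaving out that mouse was chosen after its values were seen. As mouse 1 was the highest for many genes of these lists, leaving it out lowers their PBS means by construction. The higher share and the turned medians are thus no test of the lists.

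In LM against PBS mice, 1 list gene passed, the neutrophil collagenase Mmp8 (-1.22, limma p = 0.0477, exact permutation p = 0.0281), 1 of 6 neutrophil genes (median -0.76). Its probe was well above background in 6 of 6 PBS but in 2 of 5 LM mice, so the size of that difference is uncertain. None passed among the class II pathway (median -0.17), B cell (0.01), plasma cell (0.54), T cell (-0.06), NK cell (-0.26), Kupffer cell (-0.39), dendritic cell (0.03), sinusoidal (-0.15) and hepatocyte (-0.03) genes and interferon gamma targets (-0.11). All 11 Kupffer cell genes had lower means, the smallest p being that of the scavenger receptor Marco (-1.16, exact permutation p = 0.154). In the class II pathway the smallest p was that of Rfxank, a subunit of RFX (0.22, exact permutation p = 0.0758). Clec4g, which passed in OM against PBS mice, was also lower in mean in LM mice (-0.36, limma p = 0.0592, exact permutation p = 0.0152), as was Fcgr2b, an Fc receptor of the same endothelium (-0.26, limma p = 0.0748, exact permutation p = 0.0368). Without mouse 1, 4 of 107 list genes passed (3.74%, against 4.28% of all genes), among them Jchain (0.86) and Cd8b1 (0.48), higher in LM mice, and Fcer2a, lower and not well above background in any LM mouse, while Mmp8 (-1.02) no longer did. The Kupffer cell genes were then lower in 10 of 11 with a median of -0.14, the difference for Marco was -0.57, the median of the neutrophil genes was -0.0062, and those of the class II pathway (0.04), T cell genes (0.06) and interferon gamma targets (0.14) turned positive.

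Between both inocula, 1 list gene passed, Derl3, a protein of the endoplasmic reticulum that is high in plasma cells (-1.44 in OM mice, limma p = 0.031, exact permutation p = 0.0556), 1 of 3 plasma cell genes (median 0.01). None passed among the class II pathway (0.09), B cell (0.16), T cell (0.01), NK cell (-0.01), Kupffer cell (0.31), dendritic cell (0.09), neutrophil (1.04), sinusoidal (-0.08) and hepatocyte (0.08) genes and interferon gamma targets (-0.07). A higher mean in OM mice was seen for 12 of 13 B cell genes, among them Ly6d (0.39, exact permutation p = 0.365), and equally for 11 of 11 Kupffer cell and 6 of 6 neutrophil genes, against 51% of all genes tested. Both comparisons with PBS mice share these mice, and the comparison between the inocula shares its mice with each of them.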

How the data were processed

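Liver arrays of 16 mice were grouped by their labels. The authors extracted the spots with Agilent Feature Extraction 10.10.1.1 (and name limma, per the labels), and deposited intensity values on a linear scale, corrected for background within each array. They also deposited a table of log2 values, which matched the log2 median brightness after quantile normalization (median difference 0.0063) and served as alternative values.

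From the processed intensity, control spots and spots flagged as outliers (0 on probes of the 9 genes) were left out, spots of a probe averaged, and values expressed as log2 relative to the 75th percentile of that array (a brightness of 153 to 220). Kept were the 30664 probes that 5 or more of 16 arrays called well above background, and the one with the highest mean stood for a gene. The 3 groups entered a common fit with lmFit and eBayes (limma 3.58.1, R 4.3.3, tables read with version 1.17.8 of its data.table package), with Benjamini-Hochberg adjustment over 20404 genes. Single genes had an exact two-sided permutation test over mice, and relations 100000 two-sided permutations within groups. Positions of probes follow the array design (mm9). Figures were drawn with matplotlib 3.10.9 (Python 3.11.15). The fit was tested on simulated data. The number of arrays limits the precision.

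The members, the lists and the rule for named genes were chosen with earlier results of these data known, the lists from general knowledge of the genes. Named are all members, list genes at an unadjusted p under 0.05 or, in a list without one, at most its 2 genes of smallest p, and the 6 genes most like the class II mean and the 6 most like the measured B cell receptor chain. In the B cell list 1 gene is not reported here on its own and counts only in the totals of the list. Alternatives were normexp (offset 50), quantile normalization, the authors' values, other filters on dim probes, a term for the slide, a fit of only those mice that are compared, the average over the probes of each gene, the methods' t-test (named in the study's general statistics, not for the arrays), leaving out each mouse, and, added after the data were seen, the dimmer Cd3e probe and the lists and relations without PBS mouse 1.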

Additional observations from a re-analysis of the deposited data

Results flagged for a closer look

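In PBS mice, mouse 1 lay far from the other 5 for each class II gene, by a gap that was a larger part of the range of the group than Dixon's 95% limit allows. Cd74 was 4.83 in this mouse and at most 2.93 in the others of the group, H2-Aa 1.45 against -0.54, H2-Ab1 5.50 against 3.29 and H2-Eb1 4.91 against 2.64 (log2 brightness minus the 75th percentile of the array). Over the 7 genes and 3 groups 21 such sets were examined and these 4 stood out, while chance gives about 5% of sets, and the 4 come from the same mouse and from genes that vary together.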

How the results depend on the processing

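The count of the 7 genes past an unadjusted p under 0.05 was 0 in each comparison under every alternative run, and 10 to 13 of the 36 pairs of genes passed under the other normalizations. Differences of single genes are log2 fold changes below, the cause of each change of sign was not tested, and none of the values in question passed its threshold. In LM against PBS mice, H2-Aa turned to -0.0068 with the authors' values. Cd3e turned to 0.10 (OM against PBS) and 0.032 (LM against PBS) as the mean of its probes and to 0.28 and 0.22 on the dimmer probe. The r of H2-Ab1 with Cd3e turned to -0.63 within slide 1 and -0.20 within slide 2, and that of Cd79b with Cd3e to 0.0016 with the authors' values, 0.16 within slide 2 and 0.20 on the dimmer probe. With normexp or the authors' values, the r of H2-Ab1 with Cd79b passed (0.669 and 0.692).

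Leaving out each mouse in turn, in OM against PBS mice the range was -0.41 to 0.17 for Cd74, -0.33 to 0.22 for H2-Aa, -0.40 to 0.15 for H2-Ab1, -0.33 to 0.25 for H2-Eb1, 0.058 to 0.66 for Cd79b, -0.14 to 0.33 for Blnk and -0.15 to 0.011 for Cd3e, and for the median of the 7 it was -0.33 to 0.17. In LM against PBS mice it was -0.28 to 0.30 for Cd74, -0.20 to 0.39 for H2-Aa, -0.29 to 0.28 for H2-Ab1, -0.11 to 0.44 for H2-Eb1, -0.034 to 0.53 for Cd79b, 0.28 to 0.66 for Blnk and -0.24 to -0.067 for Cd3e, and -0.12 to 0.39 for the median of the 7. Between both inocula it was -0.31 to 0.025 for Cd74, -0.35 to 0.047 for H2-Aa, -0.29 to 0.022 for H2-Ab1, -0.37 to -0.013 for H2-Eb1, -0.21 to 0.40 for Cd79b, -0.61 to -0.17 for Blnk and -0.0043 to 0.17 for Cd3e, and -0.29 to 0.0070 for the median of the 7. The r of H2-Ab1 with Cd3e ranged from -0.071 to 0.16 and that of Cd79b with Cd3e from -0.23 to 0.11. The upper ends against PBS mice for the class II genes came from leaving out PBS mouse 1.

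No paired analysis was possible because no mouse number is shared between groups. Cd79a and Cd8a were not well above background on any of these 16 arrays. Among the 9 genes this leaves Cd79b for the B cell receptor and Cd3e for T cells, while other T cell genes were tested as a list.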

Other observations

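Blnk, and Cd3e on 1 of its probes, were also set against the hepatocyte genes. Blnk had r = -0.742 and rho = -0.768 with the mean of the 8 hepatocyte genes over 16 mice (adjusted permutation p = 0.0126 and 0.00915 over 77 relations), and -0.614 without the 2 mice farthest from the median. Cd3e on its brighter probe had r = 0.620 and rho = 0.462 with the same mean (adjusted permutation p = 0.031 and 0.156), and 0.258 without 2 mice, so that relation rested on them. On the dimmer probe of Cd3e r was 0.243 (adjusted permutation p = 0.708 over 17 relations). Cd79b had r = -0.529 (adjusted permutation p = 0.0862). The neutrophil list, with 4 of its 6 tested genes highest in mouse 1, had summed levels of 0.75 to 5.01 in PBS, 0.62 to 1.28 in LM and 0.66 to 4.90 in OM mice on the log2 scale.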
